A study of Homo sapiens with 1 sample.

Results

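The genes of the respiratory chain were examined in neural progenitor cells made from human embryonic stem cells. The members were chosen by symbol. They are the 13 protein-coding genes of the mitochondrial genome (symbols starting with MT-) and 85 nuclear genes, whose symbols belong to the subunit families NDUFA, NDUFB, NDUFC, NDUFS, NDUFV, SDH, UQCR, COX5 to COX8 and ATP5. Together these were 98 of the 33538 genes listed. All 98 had at least 1 unique molecular identifier (UMI, a tag that marks 1 captured RNA molecule) in the cells kept, and 92 had at least 200.

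The cells were H9, an established human embryonic stem cell line, with genotype WT and therefore the human form of HAR123 (hHAR123), an enhancer within the gene SMG6. They were steered towards neural progenitor cells (NPCs) with N2 supplement and the inhibitors Dorsomorphin (1 μM) and SB431542 (10 μM). A Rock inhibitor was present for the opening 2 days as a monolayer, 5 days of rotating culture followed, and 7 days after replating used Gem21. Live cells from mixed clones were loaded ahead of rosette selection, and the data are UMI counts of 1 droplet library, so there was no replicate, no test was run, and every interval covers counting error only.

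The respiratory chain passes electrons from NADH and succinate through complexes I to IV to oxygen and pumps protons across the inner mitochondrial membrane, and complex V, the ATP synthase, uses that gradient to make ATP. The mitochondrial genome encodes core subunits of complexes I, III, IV and V, while the nuclear genome encodes the other subunits and all of complex II. The genomes are transcribed separately, by POLRMT in the organelle and by RNA polymerase II in the nucleus, and their products must be assembled together. NRF1 and the ETS factor GABP (NRF2) are the textbook regulators of the nuclear subunit genes.

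The sequences below show how each genome arranges these genes. On the mitochondrial genome neighbouring genes share bases. MT-ATP8 and MT-ATP6, which encode subunits of the ATP synthase, overlap by 46 bases at chrM:8527-8572 (GRCh38, forward strand), and the capitals mark the start codon of MT-ATP6 and the stop codon of MT-ATP8:
MT-ATP8/MT-ATP6 overlap: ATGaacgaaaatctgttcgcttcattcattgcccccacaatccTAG
A UMI in such an overlap cannot be given to 1 gene by its position alone. MT-ND4L and MT-ND4 share 7 bases in the same way.

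The 85 nuclear members lie on 22 chromosomes, with 12 on chromosome 19. RefSeq promoters (GRCh38.p14; 250 bases before to 50 after the start) were found for 68 of the 85 (80.0%). They were searched on both strands for GCGCA followed by any base and GCGC, a form of the NRF1 motif, and for CCGGAAG, a form of the ETS motif. The NRF1 letters stood in 17 of the 68 (25%), against 6.28% of all 27305 promoters, and the ETS letters in 19 (27.9%), against 10.7%. The 27305 were not limited to genes found in these cells. Of genes with at least 200 UMIs and a promoter, 1258 had the NRF1 letters and 10252 did not. For the ETS letters the counts were 2059 and 9451, so both letters were more frequent there than in all promoters. Both stood in 3 (4.41%), against 1.26%. By complex, the NRF1 letters were in 6 of 31 promoters of complex I, 2 of 3 of complex II, 4 of 7 of complex III, 1 of 13 of complex IV and 4 of 14 of complex V. A match is a description of the letters and not a bound site.

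Windows around the matches are printed for some of the members that held one and stood at the ends of the comparisons below, read along the strand of the gene, with the matches in capitals. UQCRC1 (chr3:48609669-48609708, minus strand) and SDHA (chr5:218139-218325, plus strand) had the highest ratios of G2/M over G1 cells in the forebrain progenitor-like class. SDHD (chr11:112086748-112086817, plus strand) had the lowest ratio in differentiating-like cells, and ATP5MD (chr10:103396457-103396653, minus strand) the highest in contractile-like cells. NDUFA3 (chr19:54102670-54102806, plus strand) was the highest in cluster 9, a small cluster with few mitochondrial UMIs:
UQCRC1: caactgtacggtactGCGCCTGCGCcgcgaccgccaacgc
SDHA: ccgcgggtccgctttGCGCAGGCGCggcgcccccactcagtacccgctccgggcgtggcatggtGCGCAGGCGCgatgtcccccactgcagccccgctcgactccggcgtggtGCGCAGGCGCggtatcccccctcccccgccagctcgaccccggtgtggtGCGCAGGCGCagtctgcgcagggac
SDHD: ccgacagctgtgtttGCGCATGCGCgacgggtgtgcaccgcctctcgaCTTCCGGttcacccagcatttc
ATP5MD: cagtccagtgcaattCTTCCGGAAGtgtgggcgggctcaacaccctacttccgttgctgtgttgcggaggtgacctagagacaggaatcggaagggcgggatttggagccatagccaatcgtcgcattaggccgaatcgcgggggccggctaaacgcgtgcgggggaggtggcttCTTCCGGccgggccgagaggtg
NDUFA3: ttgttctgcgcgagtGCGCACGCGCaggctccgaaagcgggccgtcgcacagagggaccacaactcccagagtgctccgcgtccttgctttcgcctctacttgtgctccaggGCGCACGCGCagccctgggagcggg
The SDHA promoter held 4 NRF1 matches in 187 bases. The SDHD promoter held 1 match of each kind. The ATP5MD promoter held 3 ETS matches, of which the leading pair overlap on opposite strands, and no NRF1 match. Other members at the ends had neither, among them NDUFB8, the highest in differentiating-like cells, NDUFC1, the highest in cluster 8, and ATP5MC1 and ATP5MC2.

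The filter of 2000 to 10000 detected genes and a mitochondrial share of UMIs below 10% kept 13925 of 14726 barcodes (94.6%), with 314660383 UMIs and medians of 17900 UMIs and 5579 genes per cell. The kept cells were grouped into 11 clusters from genes other than the members, so that the members did not shape the groups they are compared in. Forebrain and progenitor markers named 8 clusters with 12298 cells (forebrain progenitor-like), contractile markers named clusters 6 and 9 with 1521 cells (contractile-like), and neuronal differentiation markers named cluster 11 with 106 cells (differentiating-like). TAGLN, a smooth muscle actin-binding protein, was at 4489 CPM (UMIs per 1000000 UMIs) in cluster 6 and 524 CPM in forebrain progenitor-like cells. STMN2, a neuronal tubulin-binding protein, was at 2372 CPM in differentiating-like cells and 11.7 CPM in forebrain progenitor-like cells. The forebrain factor SIX3 was at 331 CPM in the largest class and 162 CPM in cluster 6. The classes were rebuilt here and their depth differed, with medians of 17081 UMIs in forebrain progenitor-like, 48125 in contractile-like and 13414 in differentiating-like cells.

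The mitochondrial members took 5.12% of all UMIs in kept cells (exact 95% interval 5.12 to 5.13%), and the nuclear members took 1.61%. The mitochondrial genome thus gave 3.18 UMIs for each UMI of the nuclear members. Since the assay tags the 3′ end of each molecule once, CPM values were not divided by gene length.

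Complex IV, cytochrome c oxidase, held the highest mitochondrial levels. MT-CO3 (10579 CPM) and MT-CO2 (10304 CPM) ranked 2 and 3 among all genes listed, and MT-CO1, the catalytic subunit, ranked 5 (5919 CPM). MT-ATP6, the proton channel subunit of complex V, ranked 4 (8497 CPM), and MT-CYB, cytochrome b of complex III, ranked 6 (5416 CPM). The 7 complex I genes were lower and more spread. MT-ND3 stood at 3033 CPM, MT-ND4 at 2538, MT-ND1 at 2381, MT-ND2 at 1630.3 and MT-ND5 at 557 CPM. MT-ND6, the only member on the other strand of the mitochondrial genome, was at 204 CPM. MT-ATP8 (96.5 CPM) and MT-ND4L (85.4 CPM), the upstream genes of the overlapping pairs, had the lowest counts. Because the assay tags the 3′ end, a molecule that spans both genes of a pair would count for the downstream gene. Counts and ratios within a pair may therefore not reflect separate amounts of RNA.

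The nuclear members were lower than most mitochondrial ones, with a median of 160.0 CPM over the 79 that had at least 200 UMIs. Complex I nuclear subunits had a median of 129.9 CPM and were led by NDUFS5 (495 CPM) and NDUFS6 (345 CPM). In complex II, the succinate dehydrogenase, SDHC, a membrane anchor, was at 97.4 CPM and SDHA, the flavoprotein, at 37.4 CPM. UQCRH (534 CPM), the hinge protein of complex III, and UQCRB (377 CPM) led complex III. NDUFA4 (733 CPM), which carries a complex I name but belongs to complex IV, and COX7C (625 CPM) led complex IV. In complex V the leaders were ATP5F1E (607 CPM), the epsilon subunit, and ATP5MC2 (589 CPM), a gene for subunit c of the membrane ring. ATP5IF1, the inhibitor of the synthase, was at 227 CPM. Complex II had the lowest median (36.1 CPM) and complex IV the highest (312 CPM), although the ranges of complexes I, III, IV and V overlapped. The range of complex II (28.8 to 97.4 CPM) overlapped those of complexes I, III and V.

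**Figure D1:**
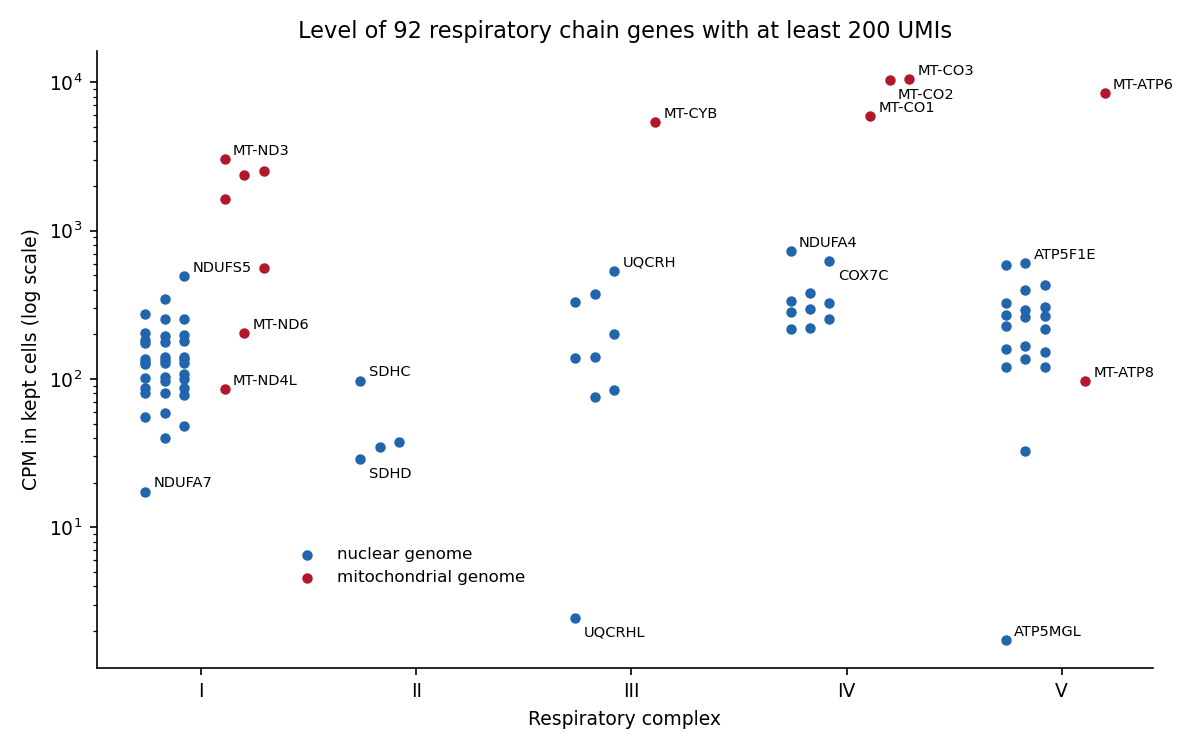
Level of each of the 92 members with at least 200 UMIs in kept cells, by complex (x axis) and in CPM on a log scale (y axis). Red points are mitochondrial and blue points nuclear genes. Of the mitochondrial genes, MT-CO3, MT-CO2, MT-ATP6, MT-CO1 and MT-CYB stand above 5000 CPM, while no nuclear member exceeds 733 CPM.

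The isoform families showed which nuclear copies these cells used. The broadly expressed copy held nearly all UMIs in each family of complex IV. COX6A1 was at 328 CPM, while its muscle counterpart COX6A2 had 1 UMI in all kept cells. COX7A2 was at 335 CPM and the muscle copy COX7A1 had 2 UMIs. COX8A, COX6B1 and COX7B were at 297, 281 and 216 CPM, against 47 UMIs for COX8C, 78 for COX6B2 and 10 for COX7B2. With ATP5MF-PTCD1, a readthrough of neighbouring genes (9 UMIs), these copies make up the 6 members under 200 UMIs. They enter the shares and sums below, but their own ratios are used only where the limit on UMIs is lowered or dropped. TAGLN and other contractile markers were present in cluster 6, where COX6A2 and COX7A1 had 0 UMIs, which allows up to 0.0416 CPM. UQCRHL (2.46 CPM) and ATP5MGL (1.74 CPM) are near-identical to UQCRH and ATP5MG, so their UMIs may belong to those genes, and their values are uncertain.

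The share of UMIs from the mitochondrial genome lay in a narrow band in 10 of the 11 clusters. The median per cell ran from 4.42% in cluster 11 to 5.94% in cluster 10. The nuclear share ran from 1.48% in clusters 2 and 7 to 1.85% in cluster 8. Cluster 9 stood apart from the other clusters in both, with medians of 0.146% mitochondrial and 2.78% nuclear. Results on contractile-like cells are therefore also given without it.

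**Figure D2:**
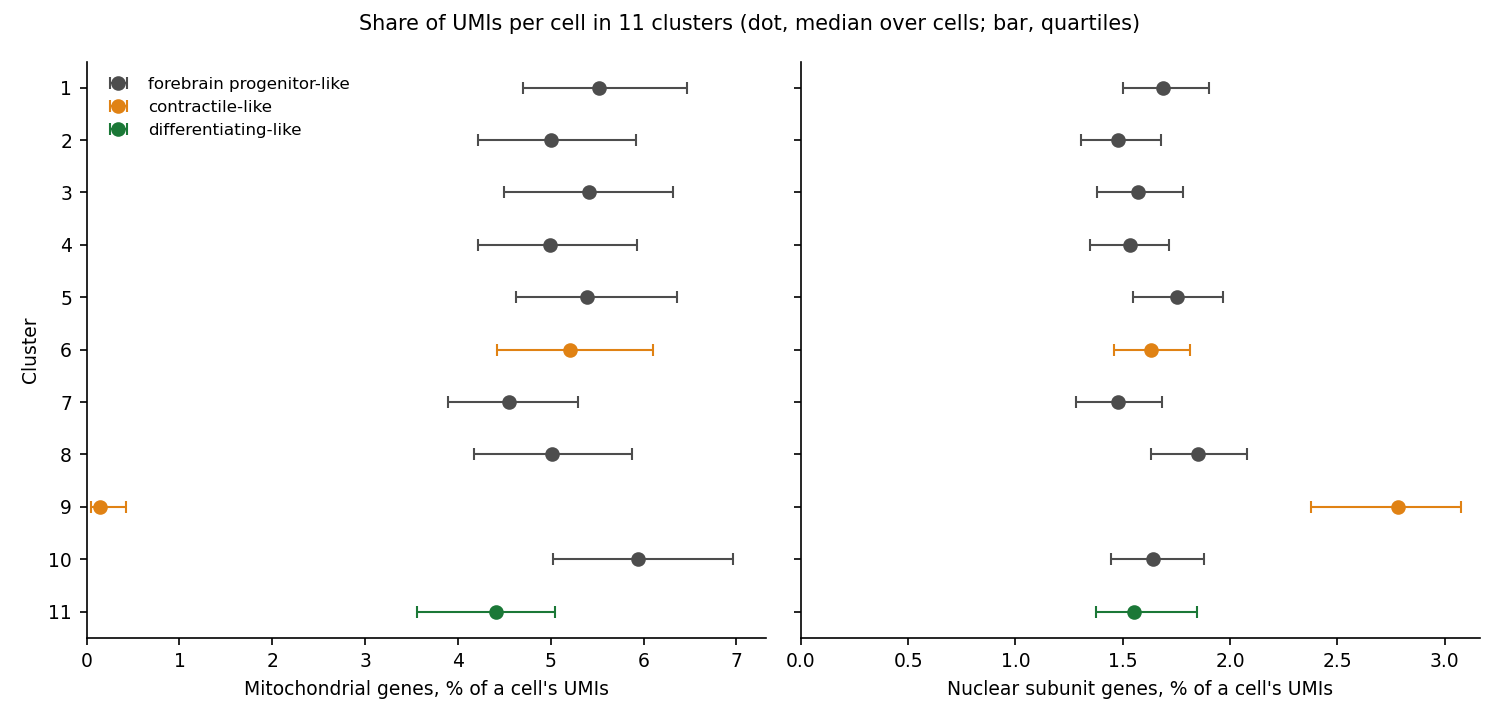
Share of each cell's UMIs from the 13 mitochondrial genes (left) and the 85 nuclear genes (right), in percent, by cluster. Dots are medians over cells, bars are quartiles, and colours are classes. Cluster 9 (170 cells) lies at 0.146% and 2.78%, apart from the other 10 clusters.

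MT-CO3, MT-CO2, MT-ATP6 and MT-CO1 led the 13 mitochondrial genes in every cluster. Outside cluster 9, MT-CO3 made up 19.4 to 22.0% of mitochondrial UMIs, MT-CO2 19.8 to 20.6%, MT-ATP6 14.6 to 17.8% and MT-CO1 10.7 to 13.7%. MT-ND6 made up 0.325 to 0.432% and MT-ND4L 0.133 to 0.195%. MT-CO2 was above MT-CO3 in clusters 6, 9 and 10, with the widest gap in cluster 9 (21.9% against 17.2%), and MT-CO3 was above MT-CO2 in the others. In clusters 5 and 10 the intervals of these genes overlapped. In the 150 cells of cluster 9 with less than 1% mitochondrial UMIs, MT-CO3 (21.1%, 19.6 to 22.6%), MT-CO2 (20.2%), MT-ATP6 (17.1%) and MT-CO1 (10.9%) lay within those ranges. The other 20 cells of cluster 9 differed, with 22.2% for MT-CO2, 16.4% for MT-CO3, 12.4% for MT-ATP6 and 15.1% for MT-CO1.

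Pooled over cells of all depths, contractile-like and forebrain progenitor-like cells held similar fractions of respiratory chain RNA, but at matched depth both fractions were higher in contractile-like cells outside cluster 9. The pooled mitochondrial share was 5.06% against 5.15% (ratio 0.983, 0.982 to 0.984), and the nuclear share was 1.65% against 1.60% (ratio 1.028, 1.026 to 1.030). Without cluster 9 the ratios were 1.002 and 1.010, so the mitochondrial ratio changed sides of 1. Counted per cell, contractile-like cells held 2.46 times the mitochondrial and 2.57 times the nuclear members' UMIs, beside their greater depth. Shares fell with depth in both classes, so cells were also compared within 5 bins of UMIs from 20000 to 70000, without cluster 9. From the shallowest to the deepest bin the mitochondrial ratio was 1.26, 1.20, 1.12, 1.16 and 1.08, and the nuclear ratio 1.12, 1.13, 1.12, 1.12 and 1.03. Every bin was thus above 1 for both genomes, with 34 forebrain progenitor-like cells in the deepest. The median depth of that class, 17081 UMIs, lay below these bins, so most of its cells were not compared in them. The values by gene and by complex that follow are pooled over depth. Of the 79 nuclear members, 37 had an interval above 1, 33 below and 9 across it, while 27.2% of all genes had one above and 62.8% one below. Without cluster 9 the members' counts were 34, 35 and 10. Their median ratio was 1.02, whereas the median over all 16780 genes tested was 0.789. A member's ratio was called when it passed 1.5-fold in either direction.

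Few nuclear members passed 1.5-fold between these classes. The call was met upwards by 1 of 79, beside 12.0% of all genes, and downwards by 3, beside 37.8% of all genes. ATP5MD, a small membrane subunit of the ATP synthase, rose to 316 CPM from 189 CPM (1.67-fold, 1.64 to 1.70). ATP5S, named coupling factor B, fell to 19.5 CPM from 36.7 CPM (ratio 0.531), and ATP5MC2 fell to 423 CPM from 640.1 CPM (0.660). UQCRHL, whose counts are uncertain, was the other member that fell (0.592). The same 4 members passed without cluster 9, where 12.1% of all genes passed upwards and 37.6% downwards. ATP5MC2 did not pass with no mitochondrial limit, with the members used in clustering, or after thinning each cell to 5000 UMIs. Just short of the limit stood NDUFA9, a complex I subunit near the ubiquinone site (1.47, from 36.2 to 53.3 CPM), and SDHB, the iron-sulfur subunit of complex II (1.45, from 31.4 to 45.5 CPM).

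By complex, the genomes did not move as a block. The mitochondrial genes of complex IV were slightly lower in contractile-like cells (0.938), led by MT-CO3 (0.908), while MT-ATP6 was slightly higher (1.07). Within complex I, MT-ND4 (1.20), MT-ND4L (1.21) and MT-ND2 (1.15) were higher and MT-ND1 (0.891) and MT-ND6 (0.866) were lower. The nuclear sums by complex ran from 0.987 in complex II to 1.07 in complex III. Without cluster 9 the mitochondrial sums were 1.04, 1.007, 0.957 and 1.09 for complexes I, III, IV and V. The nuclear sums were then 0.9996, 0.979, 1.05, 1.02 and 1.003 for complexes I to V, so that mitochondrial complex III and nuclear complex I changed sides of 1. COX7A2, the widely expressed copy of its complex IV family, was at 426 CPM against 307 CPM (1.39 for the family).

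ATP5MC2 is 1 of 3 nuclear genes that encode the same mature subunit c, and the other two did not follow it. In forebrain progenitor-like cells ATP5MC2 was at 640.1 CPM, ATP5MC3 at 376 CPM and ATP5MC1 at 111 CPM. In contractile-like cells without cluster 9 the values were 413, 469 and 148 CPM. The leading gene of the family thus differed, with ATP5MC2 holding 56.8% of the family's UMIs in the former class and 40.1% in the latter, and ATP5MC3 33.3% and 45.5%. The family's sum moved less, from 1127 to 1030.2 CPM (0.914, 0.907 to 0.922). In differentiating-like cells ATP5MC2 held 58.7% of the family and the sum was 951 CPM.

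**Figure D3:**
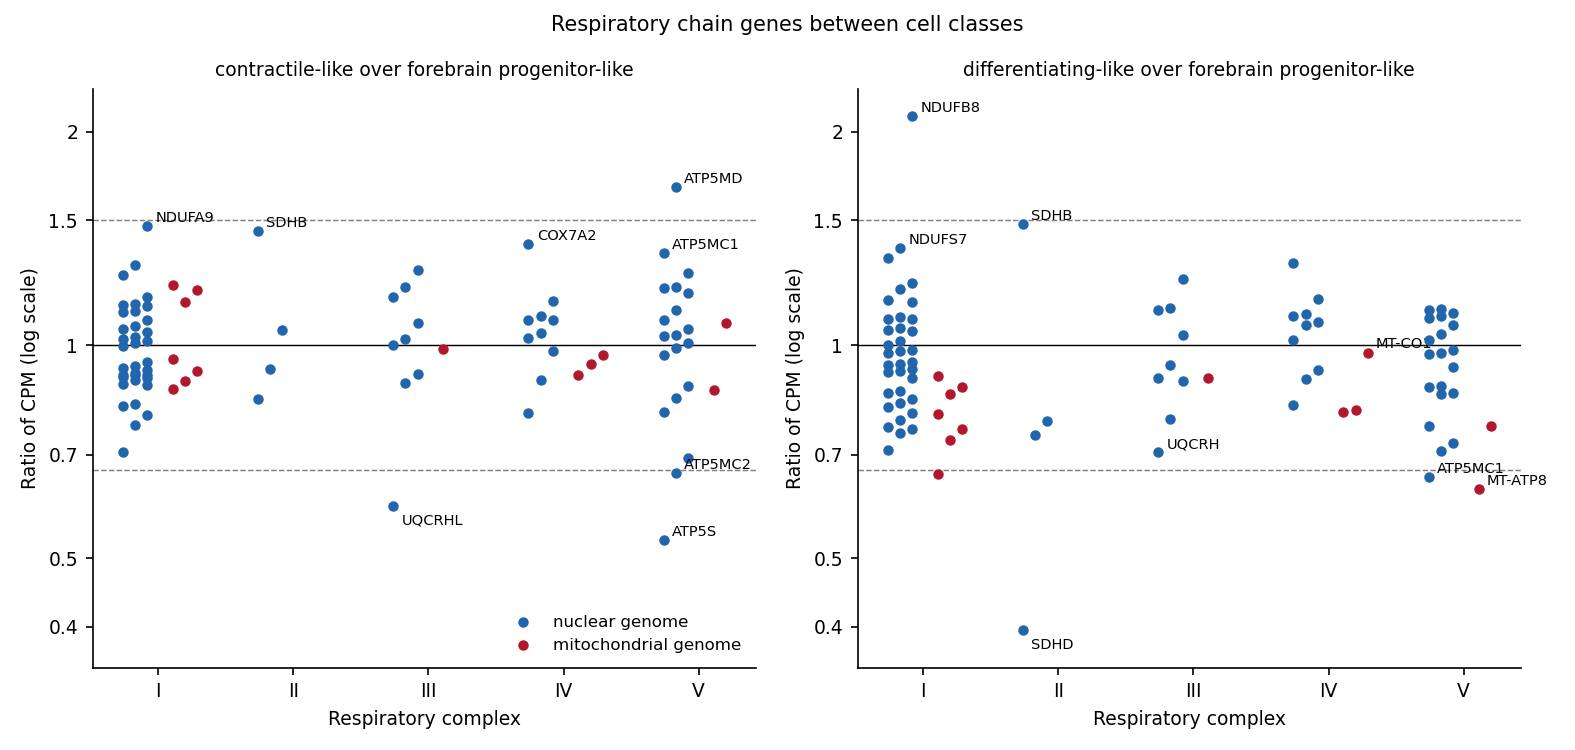
Ratio of CPM for each member with at least 200 UMIs (y axis, log scale) by complex, for contractile-like over forebrain progenitor-like cells (left) and differentiating-like over forebrain progenitor-like cells (right). Dashed lines mark 1.5-fold in each direction. At left 1 nuclear gene lies above and 3 below the lines, and at right 12 of the 13 mitochondrial genes have intervals below 1, beside 23.7% of all genes.

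Differentiating-like cells, the small class with neuronal markers, had less mitochondrial RNA and, pooled over phases and depths, a nearly equal nuclear share. The mitochondrial share was 4.26% against 5.15% in forebrain progenitor-like cells (ratio 0.828, 0.822 to 0.834). The nuclear share was 1.57% against 1.60% (0.982, 0.970 to 0.994). All 13 mitochondrial ratios were under 1, and 12 intervals lay below it, with MT-ND4L (0.904, 0.749 to 1.08) the exception. Of all genes 23.7% had an interval below 1 and 18.5% one above. The mitochondrial ratios ran from MT-ATP8 (0.626) and MT-ND6 (0.657) to MT-CO1 (0.976). MT-ATP8 and MT-ND6 passed 1.5-fold downwards, as did 29.3% of all genes. Depth was matched in 2 bins of UMIs, below 10000 (21 differentiating-like cells) and from 10000 to 20000 (69 cells). The mitochondrial ratios there were 0.772 and 0.789, and the nuclear ratios, 1.08 and 0.946, lay on both sides of 1. Per cell these classes differed more, at 0.655 for the mitochondrial and 0.777 for the nuclear members, beside the lower depth of the class. Phase differed too, as 89.6% of differentiating-like cells were called G1, against 3117 of the 12298 forebrain progenitor-like cells. Among cells called G1 the mitochondrial share was 4.27% against 5.37%, and the nuclear share 1.58% against 1.68%.

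The nuclear members of this class divided by complex. Complex IV was higher (1.06) and complexes II (0.828), III (0.918) and V (0.951) lower, while complex I was at 0.985. Upwards 1 of 79 passed 1.5-fold (18.5% of all genes) and downwards 2 (29.3% of all genes). As 23.7% of all genes had an interval below 1, the downward share includes genes whose interval crossed 1. NDUFB8, an accessory complex I subunit, rose from 175 to 369 CPM (2.10, 1.94 to 2.28, 602 UMIs). SDHD, a membrane anchor of complex II, fell from 29.4 to 11.7 CPM (0.396, 0.238 to 0.619), which rests on 19 UMIs. ATP5MC1 fell from 111 to 72.4 CPM (0.651), and UQCRH stood at 360.0 against 510.2 CPM (0.706). SDHB (1.48) and NDUFS7, an iron-sulfur subunit of complex I (1.37), were the next highest. Within complex II the iron-sulfur subunit SDHB and the anchor SDHD thus lay on opposite sides of 1, with 76 and 19 UMIs behind them. Forebrain progenitor-like cells called G1 held ATP5MC1 at 87.6 and SDHA at 27.7 CPM, beside 72.4 and 27.6 CPM in this class. Their UQCRH was at 506 CPM and their SDHD at 25.3 CPM. The part of phase in the ratios of this class was not tested.

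Cell cycle state was compared within the forebrain progenitor-like class, which held 3117 cells called G1, 5165 called S and 4016 called G2/M from published lists of phase genes. Pooled over depth, both genomes held a slightly smaller share of UMIs in G2/M. In the bins of depth given below, the ratios lay on both sides of 1. The mitochondrial share was 5.00% in G2/M, 5.19% in S and 5.37% in G1, a ratio of G2/M over G1 of 0.931 (0.930 to 0.933). The nuclear share was 1.58%, 1.59% and 1.68%, a ratio of 0.940 (0.938 to 0.943). Clusters of G2/M cells differed, with a pooled nuclear share of 1.52% in cluster 4 (99.8% called G2/M) and 1.83% in cluster 8 (78.1%). Of the 3117 G1 cells, 2056 were in cluster 1, so phase and cluster were not separated here. Cells in G2/M were deeper, with a median of 21761 UMIs against 13512 in G1, and per cell they held 1.52 times the mitochondrial and 1.53 times the nuclear members' UMIs.

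None of the 79 nuclear members passed 1.5-fold between G2/M and G1, where 8.86% of all genes did upwards and 9.96% downwards. None passed between S and G1 either (10.6% and 7.72% of all genes). Intervals lay above 1 for 25 members in G2/M, below 1 for 42 and across it for 12, while they lay above 1 for 33.8% of all genes and below 1 for 34.5%. The members above 1 included UQCRC1, a core protein of complex III (95.0 against 67.6 CPM, 1.41), SDHA (38.7 against 27.7 CPM, 1.40) and ATP5MC1 (121 against 87.6 CPM, 1.38). The lowest were UQCRHL (0.702), UQCRB, a ubiquinone-binding protein of complex III (345 against 474 CPM, 0.728) and NDUFA1 (115 against 153 CPM, 0.751), a complex I membrane subunit. Thus complex III held members at both ends.

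Of the 10 nuclear members of complex IV with at least 200 UMIs, intervals lay below 1 for 6 in G2/M, above 1 for 3 and across it for 1 (COX6A1). COX7C stood at 0.773 and the COX6B family at 0.826, and the complex IV nuclear sum was 0.902. COX8A (1.20), COX5A (1.11) and COX7A2 (1.02) were the 3 above 1. Complex I was level (0.998), complex II was higher (1.11), and complexes III (0.925) and V (0.911) were lower. On the mitochondrial side complex I was also level (1.007), and complexes III (0.905), IV (0.910) and V (0.929) were lower, so complex I had the highest ratio of these 4 complexes in both genomes.

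**Figure D4:**
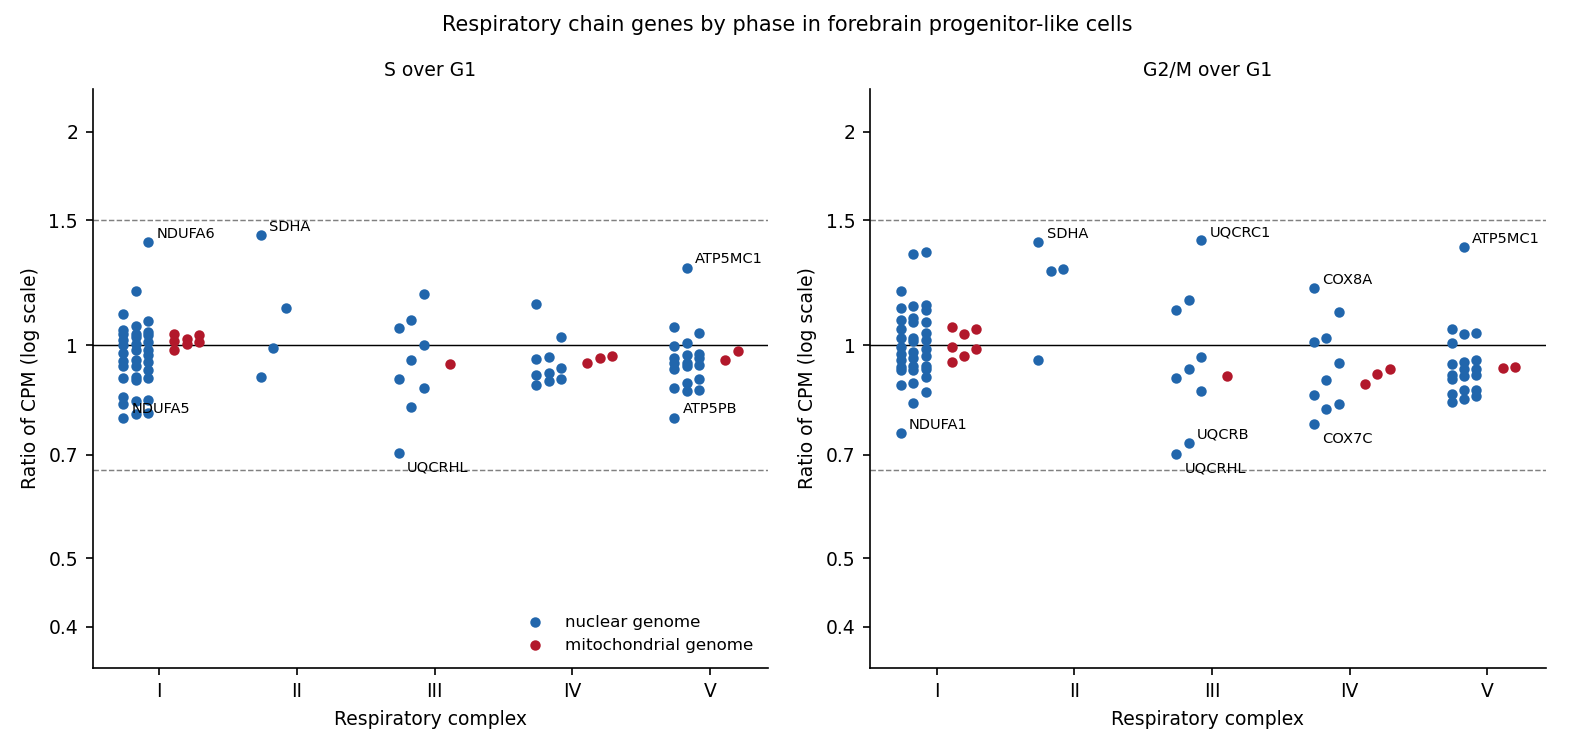
Ratio of CPM in S over G1 cells (left) and G2/M over G1 cells (right) for each member with at least 200 UMIs in forebrain progenitor-like cells (y axis, log scale), by complex. Dashed lines mark 1.5-fold in each direction. No member lies outside the dashed lines, and UQCRC1, SDHA and ATP5MC1 are highest in G2/M at 1.41, 1.40 and 1.38.

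In S over G1 the sums were 0.966 for the mitochondrial and 0.946 for the nuclear members. SDHA (1.43), NDUFA6, an accessory subunit of complex I (1.40), and ATP5MC1 (1.29) were highest. UQCRHL (0.704), ATP5PB, the peripheral stalk subunit b of the synthase (0.790), and NDUFA5 (0.790) were lowest. SDHA, NDUFA6 (1.34 in G2/M) and ATP5MC1 were thus among the members above their G1 level in both S and G2/M. In G2/M over S the sums were 0.964 and 0.994, and none of the 79 nuclear members passed 1.5-fold (2.87% of all genes upwards and 5.21% downwards). SDHB (1.30), UQCRC1 (1.19) and COX8A (1.17) were highest, and COX7C (0.862), UQCRB (0.892) and NDUFA1 (0.898) lowest.

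Forebrain progenitor-like cells were placed in 5 equal bins by UMIs, and the mitochondrial ratio of G2/M over G1 was 0.859, 0.997, 1.06, 1.06 and 0.957 from the shallowest to the deepest bin. The nuclear ratio ran from 1.09 through 1.05, 1.01 and 0.958 to 0.929. The mitochondrial ratio was below 1 in 3 of the 5 bins and the nuclear ratio in the 2 deepest. With every cell thinned to 5000 UMIs the ratios were 0.927 and 0.948. The shallowest bin held 351 cells in G2/M and the deepest 164 in G1.

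The contractile-like class gave similar phase sums in its 708 G2/M and 346 G1 cells, 0.888 for the mitochondrial and 0.942 for the nuclear members. Its G2/M cells were deeper too, with a median of 56950 UMIs against 39971.5 in G1. ATP5MC1 was again among the highest (1.23), with NDUFV1, the NADH-binding subunit of complex I (1.26), and NDUFA12 (1.22). COX6C (0.780), COX6B1 (0.799) and UQCRHL (0.620) were lowest. Without cluster 9 (615 and 323 cells) the sums were 0.896 and 0.936, and the same genes were at the ends, with NDUFV1 at 1.26 and COX6C at 0.775. Within 5 equal bins of UMIs, without cluster 9, the mitochondrial ratio lay between 0.885 and 0.995 and the nuclear ratio between 0.915 and 0.990, below 1 in every bin.

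The 16 tested members with NRF1 letters had a median ratio of G2/M over G1 of 0.974, and the 48 without had 0.975. The same medians were both 1.02 for contractile-like cells. In differentiating-like cells they were 0.935 and 0.995. For the ETS letters, the medians with (19 members) and without (45) were 0.962 and 0.979 in G2/M over G1, 1.04 and 1.02 in contractile-like cells, and 1.02 and 0.941 in differentiating-like cells. No window of the table was longer than 300 bases, so letters farther out were not searched.

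The forebrain progenitor-like clusters differed in both genomes. Cluster 8 (1226 cells, 78.1% called G2/M), led by AL118516.1, THAP2 and the mitotic genes PTTG1 and CCNB2, had a nuclear share 1.16 times that of the other clusters of the class, and a mitochondrial share 0.964 times theirs. Intervals were above 1 for 71 of its 79 nuclear members and below 1 for 0, while they were above 1 for 32.9% of all genes and below 1 for 26.5%. The median ratio was 1.15 over the nuclear members and 1.02 over all genes. Upwards 3 of 79 passed 1.5-fold, beside 6.20% of all genes, and 0 passed downwards, beside 12.0%. NDUFC1 (198 against 123 CPM, 1.61), NDUFB4 (304 against 201 CPM, 1.51), both accessory subunits of complex I, and SDHD (42.7 against 28.2 CPM, 1.51) were highest. NDUFA9 (1.01) and SDHA (1.02) were near 1, and ATP5MGL was lowest (0.853, 0.564 to 1.24).

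Cluster 2 (2134 cells), led by histone genes and called S or G2/M throughout, showed the opposite for several of these genes. Its nuclear share was 0.901 times that of the other clusters, with NDUFC1 at 0.703, NDUFB4 at 0.750 and ATP5PB at 0.758. SDHA (1.27), NDUFS1 (1.12) and NDUFA6 (1.11) were highest there. Cluster 7 (1313 cells), led by C1orf61 and EPHA3, had a mitochondrial ratio of 0.866 and a nuclear ratio of 0.906. Its lowest nuclear members were COX8A (197 against 299 CPM, 0.661), NDUFA6 (0.728) and NDUFA9 (0.737), whereas UQCRHL was 1.29, ATP5MC2 1.18 and UQCRB 1.12. Clusters 2, 7 and 8 had median depths of 20019.5, 13278 and 14867 UMIs, and these ratios are descriptions of clusters found in the same cells.

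Cluster 9 held 170 cells in which the genomes stood far apart. It carried 5 of the contractile markers, against 9 in cluster 6, and was led by RYR2, S100A16 and GAL. TAGLN was at 4929 CPM against 4489 CPM in cluster 6. Its mitochondrial UMIs were 1.04% of the total against 5.16% in the other contractile-like cells (ratio 0.202, 0.199 to 0.205). Most of these UMIs, 15879 of 18762, came from its 20 cells with 1% or more, and the other 150 cells held 0.191% (ratio 0.0371). Its nuclear members were 2.76% against 1.62% (ratio 1.71, 1.69 to 1.72), and 2.81% in those 150 cells (ratio 1.74). The ratio of mitochondrial to nuclear members' UMIs was 0.378, and 0.0681 in the 150 cells, against 3.19 in the other contractile-like cells.

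All 13 mitochondrial genes were below the limit in cluster 9, where 42.0% of all genes passed it downwards. Intervals lay below 1 for fewer genes, 28.7% of all in cluster 9 and 28.3% in its 150 cells. The downward shares thus include genes whose interval crossed 1. MT-CO2 was at 2284 against 10265 CPM (0.222), MT-ATP6 at 1373 against 9169 CPM (0.150), and the range ran from MT-ND6 (0.125) to MT-CO1 (0.263). These pooled values rest mostly on the 20 cells. In the 150 cells MT-CO2 was at 386 CPM (0.0376) and MT-ATP6 at 327 CPM (0.0357), and the range ran from MT-ND2 (0.0312) to MT-ATP8 (0.0603). Of the nuclear members, 59 of 79 passed upwards, beside 14.0% of all genes, and 0 passed downwards, and in the 150 cells 61 passed upwards, beside 14.2% of all genes, and 0 downwards, beside 45.5%. In those cells NDUFA3 (2.34), ATP5PD (2.23) and UQCR10 (2.20) were highest and UQCRHL (0.826), NDUFS1 and NDUFA10 (0.882) lowest. UQCRHL rests on 2 UMIs there (0.0988 to 3.05), and the interval of NDUFA10 crossed 1 (0.694 to 1.10). The largest ratios were those of NDUFA3 (155 against 65.1 CPM, 2.38), an accessory subunit of complex I, UQCR10 (687 against 322 CPM, 2.13), a small subunit of complex III, and ATP5ME (307 against 146 CPM, 2.10). NDUFS1, the largest subunit of complex I, was the only one with an interval below 1 (64.0 against 81.5 CPM, 0.784), and in the 150 cells its interval crossed 1 (0.830, 0.676 to 1.01). SDHA (0.944) and NDUFA10 (0.95) had intervals across 1.

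All nuclear parts of the chain were higher by their sums, least complex II (1.34) and most complex III (1.78), with complex I at 1.65, complex IV at 1.73 and complex V at 1.74. Depth was lower in these cells, with a median of 9605 UMIs against 51528, so that per cell they held 0.0401 times the mitochondrial and 0.338 times the nuclear members' UMIs. The members' UMIs per cell were therefore lower for both genomes, and only the shares of the nuclear members were higher. The shallowest 270 of the other contractile-like cells (median 31668 UMIs) had a median nuclear share of 1.76% and a highest value of 2.42%, below the median of cluster 9.

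Gene length went with the ratios of cluster 9. In quartiles of gene span, from the shortest to the longest, the median ratio over all nuclear genes was 1.17, 0.945, 0.755 and 0.443. The members' medians were 1.72, 1.63, 1.43 and 1.57, with 43, 25, 8 and 3 members. In quartiles of transcript length the medians were 1.12, 0.955, 0.751 and 0.551 over all nuclear genes, and 1.71, 1.497, 1.39 and 1.39 over the members, with 60, 9, 4 and 6 members. The nuclear noncoding RNA NEAT1 was at 97.9 CPM in cluster 9 and 1140.5 CPM in the other contractile-like cells, and MALAT1 at 8230 and 13258 CPM. The part of gene length, transcript length and these RNAs in the members' ratios was not tested.

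**Figure D5:**
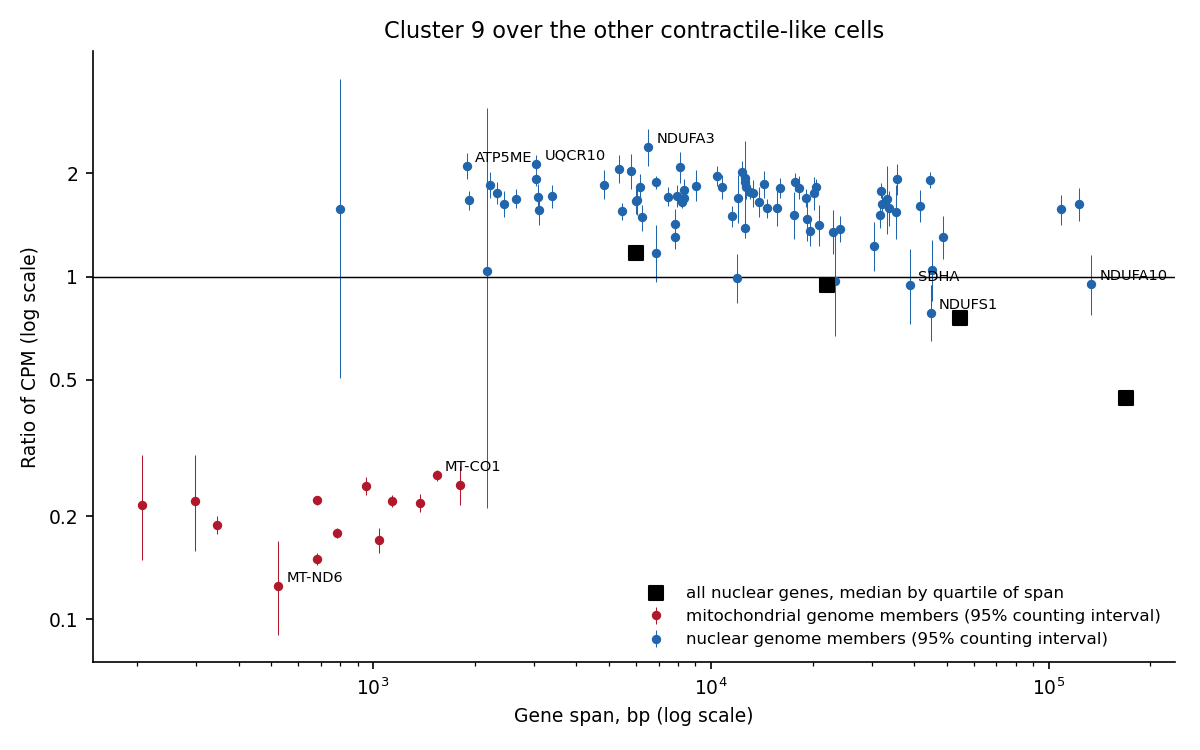
Ratio of CPM in cluster 9 over the other contractile-like cells (y axis, log scale) against gene span in bp (x axis, log scale) for each member with at least 200 UMIs, with 95% counting intervals as bars. Black squares are the medians of all nuclear genes in quartiles of span (1.17, 0.945, 0.755 and 0.443). Mitochondrial genes lie between 0.125 and 0.263, and the highest nuclear member, NDUFA3, at 2.38.

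Low mitochondrial shares were not confined to cluster 9. Of 189 kept cells with less than 1% mitochondrial UMIs, 150 were in cluster 9, and 24 of the other 39 were in cluster 8. The 150 had a median nuclear share of 2.81%, and the 39 had 2.18%. In cluster 8 the 24 had 2.38%, against 1.84% in its other 1202 cells, at median depths of 7856.5 and 14948.5 UMIs. The part of depth in these shares was not tested. The 20 cells of cluster 9 with 1% or more had medians of 4.63% mitochondrial and 2.51% nuclear, and the other contractile-like cells had a median nuclear share of 1.63%. Across all kept cells 40 had shares of 1 to 2%, 308 had 2 to 3% and 12870 had 3 to 8%, so that the low cells were separated from the main body by a thinly filled range.

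At the upper limit of the filter there was no such gap. There were 153 kept cells with 9 to 10% mitochondrial UMIs, and 46 barcodes with 10 to 11% that met the limits on genes. The 187 barcodes that failed only the mitochondrial limit had a median of 14.2% mitochondrial and 0.858% nuclear UMIs, at 9462 UMIs. High mitochondrial shares were thus found with low nuclear shares among these barcodes, the reverse of cluster 9.

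From cell to cell within the forebrain progenitor-like class, cells with a larger mitochondrial share also had a larger nuclear members' share of the remaining UMIs. In 5 equal bins by mitochondrial share, whose medians ran from 3.68 to 7.07%, the nuclear share of the remaining UMIs was 1.49, 1.63, 1.72, 1.80 and 1.85%. All cells share 1 library, and the median depth fell from 19458.5 UMIs in the lowest bin to 14641 UMIs in the highest. The part of depth in this pattern was not tested.

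The genes that supply and assemble the chain were read from fixed lists, as the ratio of contractile-like over forebrain progenitor-like cells. Each list's count is to be read beside the 12.0% of all genes that passed upwards and the 37.8% that passed downwards. A list's median is to be read beside 0.789 over all genes. Among 7 tested electron carriers and their reductases, CYCS, cytochrome c, was higher (320 against 160 CPM, 2.00) and GPD2, the glycerol-3-phosphate dehydrogenase, lower (0.509). Of 4 further subunits that the symbol rule missed, none passed 1.5-fold, with CYC1 and NDUFAB1 at 1.24, COX7A2L at 1.17 and COX4I1 at 0.986. These subunits therefore lay in the range of the members.

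The assembly factors were mixed. For complex I, 2 of 17 passed upwards (NDUFAF8 at 1.67, NDUFAF4 at 1.56) and 2 downwards (NDUFAF6 at 0.480, NUBPL at 0.601). For complexes II to V, 0 of 30 passed upwards and 4 downwards, including SDHAF4 (0.578) and PET100 (0.615), while COX14 (1.46) and the copper chaperone COX17 (1.44) were highest.

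Genes that maintain and express the mitochondrial genome did not move as a group either. Of 19 for maintenance and transcription, 1 passed upwards (RRM2B, a ribonucleotide reductase subunit, 1.95) and 5 downwards, among them PRIMPOL (0.455) and MTERF2 (0.476), and the polymerase POLRMT was at 1.32. Of 20 for RNA processing and stability, 2 passed upwards (REXO2, an RNA exonuclease, 3.43, and TBRG4, 1.61) and 2 downwards (PTCD2, 0.604, and FASTKD1, 0.660). Among 12 regulators of biogenesis, MYC was higher (56.3 against 14.7 CPM, 3.84), ESRRA stood at 1.49, and CREB1 (0.562) and GABPA (0.601), the DNA-binding subunit of GABP, were among 4 that were lower.

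Import and chaperone genes formed the list with the highest median (1.39). Of 24 tested, 7 passed upwards and 0 downwards, led by the import channel TOMM40 (1.89) and the chaperone HSPA9 (1.64), while PHB2 (1.01) and TRAP1 (1.03) were lowest. Glycolysis genes had a median of 1.23, with 8 of 22 upwards, led by PFKP (90.6 against 5.03 CPM, 18.0) and the glucose transporter SLC2A3 (2.66), and 3 downwards, including PFKM (0.531) and ALDOC (0.608). Of 18 genes of the TCA cycle 1 passed upwards (PDHB, 1.53) and 2 downwards (SUCLG2, 0.585, and IDH2, 0.587), and IDH3A was at 1.44. Of 77 mitochondrial ribosome genes 5 passed upwards, led by MRPL40 (1.83) and MRPS12 (1.69), and 1 downwards (MRPS31, 0.562), with MRPS27 at 0.671. Without cluster 9 the counts were 6 of 24 upwards for import and 5 of 30 downwards for assembly of complexes II to V, and the other lists kept their counts.

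In differentiating-like cells, where 29.3% of all genes passed downwards, the nuclear members' median was 0.973 and that of the subunits outside the rule 1.01. The other 10 lists had lower medians than these, beside a median of 0.910 over all genes tested. Glycolysis was at 0.587 (14 of 22 downwards), mtDNA maintenance and transcription at 0.685 (9 of 19), import at 0.728 (11 of 24), RNA processing at 0.746 (8 of 20), the electron carriers at 0.783 (1 of 7) and the mitochondrial ribosome at 0.797 (22 of 77). The TCA cycle (0.883), both lists of assembly factors (0.891 and 0.8999) and the regulators of biogenesis (0.916) were closer to the members. These lay near the all-gene median. Phase was not matched here, and 89.6% of differentiating-like cells were called G1. In G2/M over G1 the nuclear members' median was 0.952 and that of the subunits outside the rule 0.955, while the other 10 lists ran from 1.03 for the regulators of biogenesis to 1.26 for import. The all-gene median there was 0.990. In cluster 9 the mitochondrial ribosome had a median of 1.40, with 24 of 77 upwards (14.0% of all genes), beside 1.68 for the nuclear members. Assembly of complexes II to V was at 1.41 (12 of 30), import at 1.35 (8 of 24) and the subunits outside the rule at 1.49 (1 of 4). The other lists ran from 0.683 for the regulators of biogenesis to 1.27 for the electron carriers. The all-gene median in cluster 9 was 0.780. None of these differences between lists was tested.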

How the data were processed

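The authors deposited raw UMI counts per gene and barcode for the 1 library. Per the labels and the study's methods they were made with Cell Ranger 7.0.1 at its default parameters on GRCh38 and analysed in Seurat 4.4.0. By default that version counts intronic as well as exonic reads, on the sense strand. The annotation version is not given in the sources used here. Overlapping genes, pseudogenes and nuclear copies of mitochondrial genes can shift single members.

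Cells with 2000 to 10000 genes and a mitochondrial share below 0.1 were kept. Counts were scaled to 10000 per cell, and the 2000 most variable genes without the members were reduced to 30 components and clustered (scanpy 1.11.5, 20 neighbours, Leiden resolution 0.5, leidenalg 0.10.2, Python 3.11.15). Class names needed 3 or more class markers, each at 20 CPM or above and 3-fold over the remaining cells. The forebrain name needed 3 or more forebrain and 3 or more progenitor markers, each at 50 CPM or above, and was given only where no class name was met. Clusters 6, 9 and 11 also met it and took their class name first. Some contractile and differentiation markers had been picked by the study on its own libraries. Phases used 42 S and 52 G2/M genes of Seurat 5.3.0 (R 4.3.3). Scrublet called 1 barcode, so it had not worked and no doublet was removed.

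Levels are pooled CPM with exact 95% Poisson intervals, shares carry Clopper-Pearson intervals and ratios exact conditional intervals (scipy 1.17.1). Cells are not replicates, so no p-value is given. Ratios were called past 1.5-fold among genes with at least 200 UMIs. The ratio and the thinning to 5000 UMIs were tested on simulated data, and positions came from GENCODE 44.

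The members, lists and comparisons were chosen with earlier results of these data known. Genes were named by a rule, which takes all mitochondrial members, the 2 highest nuclear members of each complex, the 3 highest and 3 lowest nuclear ratios of each comparison, the isoform families, the 2 highest and 2 lowest genes of each list, NDUFA4, ATP5IF1 and the members under 200 UMIs. For the electron carriers only the highest and the lowest gene are named. Other genes named were chosen after their values were seen.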

Additional observations from a re-analysis of the deposited data

How the results depend on the processing

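Apart from matched depth, changing 1 choice at a time left the differentiating-like ratios and the nuclear contractile-like ratio on their side of 1, although the interval of the nuclear differentiating-like ratio crossed 1 after thinning (0.976 to 1.019) and after removing the highest Scrublet scores (0.980 to 1.007). No paired analysis was possible because there was 1 library. Matching depth in bins of UMIs put the contractile-like ratios of both genomes above 1 in all 5 bins (1.08 to 1.26 and 1.03 to 1.13, without cluster 9) and the nuclear differentiating-like ratio on both sides (1.08 and 0.946). Phase was not matched in these bins. These bins, the removal of cluster 9, and that of its cells with 1% or more mitochondrial UMIs, were chosen after seeing the data. In 5 bins of depth the G2/M over G1 ratios of forebrain progenitor-like cells lay on both sides of 1. They ran from 0.859 to 1.06 for the mitochondrial and from 0.929 to 1.09 for the nuclear members. Removing cluster 9 turned the mitochondrial ratio of contractile-like over forebrain progenitor-like cells from 0.983 to 1.002, moved the nuclear ratio from 1.028 to 1.010, and moved the mitochondrial share of kept cells from 5.12 to 5.15%. Counting UMIs per cell in place of CPM turned 3 ratios, the mitochondrial contractile-like ratio (2.46) and the G2/M over G1 ratios (1.52 from 0.931 mitochondrial, 1.53 from 0.940 nuclear). It also moved the nuclear contractile-like ratio to 2.57 and the differentiating-like ratios to 0.655 from 0.828 (mitochondrial) and 0.777 from 0.982 (nuclear).

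The mean of per-cell CPM gave a share of 5.23%, contractile-like ratios of 0.908 (mitochondrial) and 1.08 (nuclear), a nuclear differentiating-like ratio of 0.999 and G2/M ratios of 0.923 and 0.957. Thinning each cell to 5000 UMIs gave 5.23%, 0.913, 1.08, differentiating-like ratios of 0.821 and 0.997, and G2/M ratios of 0.927 and 0.948. Without the mitochondrial limit the share was 5.20%, the mitochondrial ratios 0.996 (contractile-like) and 0.819 (differentiating-like), and the nuclear G2/M ratio 0.937. Removing the highest 8% of Scrublet scores gave 5.13%, a nuclear contractile-like ratio of 1.04 and G2/M ratios of 0.928 and 0.947. Resolution 1.0 gave 0.972 and 1.025 for contractile-like and 0.858 and 0.952 for differentiating-like cells, and clustering with the members gave a nuclear contractile-like ratio of 1.032. The causes were not tested.

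The count of nuclear members past 1.5-fold in contractile-like cells was 4, lay between 3 and 5 under 8 alternatives, and was 7 with no filter on UMIs, which adds members with few UMIs. ATP5MC2 was not among them with no mitochondrial limit, with the members in clustering or after thinning. NDUFA9 was added in the latter 2 and after Scrublet removal, and thinning also lost UQCRHL and added ATP5MC1. The depth of the 106 differentiating-like cells limits low genes there, since 3 counts are 1.84 CPM.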
